A study of Mus musculus with 26 samples.

Results

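The FOS and JUN genes encode the proteins that pair to form the transcription factor AP-1. The family was taken by symbol as Fos, Fosb, Fosl1 and Fosl2 on the FOS side and Jun, Junb and Jund on the JUN side, which is 7 of the 20430 gene symbols in the RNA tables and 7 of the 19941 in the footprint tables. All 7 passed the filter on low counts in every fit. They were followed in NIH3T3, a long-established fibroblast line from mouse embryos, with no genetic change named in the labels. The heat experiment held an untreated control, 44 °C for 2 h and 42 °C for 8 h, each with 2 RNA libraries. The other experiment held 1 control shared by oxidative stress (H2O2) and osmotic stress (KCl), with each agent applied for 2 h or 7 h, and each of these 5 groups had 2 RNA libraries and 2 ribosome footprint libraries. The labels give no dose of H2O2 or KCl, and the 2 heat groups differ in both temperature and duration, which cannot be told apart. The study's title concerns transcription that runs past the end of genes under stress.

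FOS proteins cannot pair with each other and bind DNA only with a partner, while JUN proteins can also pair among themselves. Fos, Fosb, Jun and Junb are textbook immediate early genes: their promoters are switched on by MAP kinase signalling without new protein synthesis, and their mRNAs carry AU-rich elements that make them short-lived. Fosl1 and Fosl2 encode FRA-1 and FRA-2, which lack the strong activation domain of FOS, and Jund is usually expressed at a steady level in resting fibroblasts.

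RNA libraries held 24441877 to 45244430 expected counts and footprint libraries 1460751 to 5168537, with the 2 footprint libraries of 2 h of H2O2 at both ends of that range. Of 15 fibroblast markers, 11 were at 1 TPM or more in all 16 RNA libraries. TPM is a level scaled to transcript length and to the library's total, so it can be compared between genes. The summed fibroblast markers ranged from 4378 TPM in an H2O2 7 h library to 12161 TPM in a heat control library. Markers of other cell types summed to 18.3 to 53.4 TPM, 8 of 12 stayed under 1 TPM in every library, and their sum was highest after 7 h of H2O2 (52.0 and 53.4 TPM against 22.5 and 25.0 in the controls). Among these 12, Cd68 had the widest range, at 5.32 to 44.7 TPM over all RNA libraries and 9.32 to 10.3 TPM in the controls. Whether the shift in either sum takes part in the results was not tested. In bulk libraries, fewer cells of a kind and less RNA per cell cannot be told apart. The labels do not say whether replicates came from separate cultures. The p-values therefore set differences against the spread between labelled replicates, which may be technical. That spread was estimated over all groups of a fit together.

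The DNA just upstream of the annotated start is shown for the 4 classical immediate early members. Each line holds the last 160 bases before the start from RefSeq's GRCm38.p6 (the assembly also called mm10), written 5′ to 3′ on the gene's strand, and capitals mark matches to 4 of the strings searched.
Fos, chr12:85473730-85473889, plus strand: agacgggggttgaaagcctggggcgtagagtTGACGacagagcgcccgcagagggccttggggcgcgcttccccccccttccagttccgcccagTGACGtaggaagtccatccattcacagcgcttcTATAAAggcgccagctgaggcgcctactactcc
Fosb, chr7:19310046-19310205, minus strand: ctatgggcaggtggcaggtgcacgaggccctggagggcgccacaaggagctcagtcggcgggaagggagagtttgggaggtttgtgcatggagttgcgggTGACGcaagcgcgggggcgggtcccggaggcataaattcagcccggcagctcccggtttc
Jun, chr4:95052223-95052382, minus strand: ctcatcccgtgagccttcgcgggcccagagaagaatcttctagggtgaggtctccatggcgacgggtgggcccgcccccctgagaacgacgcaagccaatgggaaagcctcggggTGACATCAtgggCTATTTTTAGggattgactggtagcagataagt
Junb, chr8:84978749-84978908, minus strand: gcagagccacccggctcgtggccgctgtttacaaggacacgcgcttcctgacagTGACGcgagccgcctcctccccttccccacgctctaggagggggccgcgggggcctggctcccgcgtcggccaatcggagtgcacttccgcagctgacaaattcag
The capitals TGACG in Fos, Fosb and Junb are the core letters of the site of CREB and ATF proteins. In Jun, the capitals TGACATCA are a site of the ATF and AP-1 type, and the later capitals match the MEF2 site, an A+T-rich string bound by MEF2 proteins. The capitals TATAAA in Fos are a TATA box. Windows from 250 bases before to 50 after the start were searched on both strands for 6 of the 7 members and for all 32851 RefSeq windows. No window was available for Fosl1. The strings for MEF2 and the heat shock element were reworded after a first search had been seen. Their shares of all windows are thus not those of strings fixed in advance. TGACG began 129 and 66 bases before the start of Fos, 60 before that of Fosb and 106 before that of Junb, and 20.8% of all windows held it. The Jun match to TGACATCA began 45 bases before the start (3.62% of windows) and that to the MEF2 site 33 bases before it (3.19% of windows). The TATA box letters began 33 bases before the start of Fos and at the annotated first base of Junb (13.6% of windows). GAANNTTC, letters of the heat shock element, began 128 bases before the start of Jun and 244 before that of Fosl2 (7.86% of windows) and stand in lower case. No match in these 6 windows was found for the full CREB site TGACGTCA, which contains TGACG (1.79% of windows), or for the AP-1 site TGANTCA (7.81%). The CArG box bound by SRF (1.63%), the NRF2 site letters TGACNNNGC (12.4%) and the NFAT site letters TGGAAA (21.4%) had none either. DNA more than 250 bases before the start was not searched, so a promoter may hold any of these sites further upstream. No match was found in the window of Jund.

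The members lie on chromosome 12 (Fos), 7 (Fosb), 19 (Fosl1), 5 (Fosl2), 4 (Jun) and 8 (Junb and Jund). Fosl1, at chr19:5447698-5455938 in GRCm38.p6, overlaps Ccdc85b in that annotation, and the other 6 overlap no annotated gene. The sources do not say whether the authors' counting used strand, so reads of Fosl1 and Ccdc85b may not have been told apart.

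Across the RNA libraries, some members changed in every stress group, in patterns that differed between the members. H2O2 raised Fos, Fosb, Fosl1, Jun and Junb after 2 h and after 7 h. KCl raised 6 members after 2 h and only Fos and Fosl2 of the 7 after 7 h, when Fosl1, Jun, Junb and Jund were below control. Heat at 42 °C for 8 h raised all 7, and heat at 44 °C for 2 h raised Fos slightly and lowered Fosl1, Fosl2 and Jun. A gene is called higher or lower here when the Benjamini-Hochberg adjusted p of edgeR's quasi-likelihood test, over all genes tested, was under 0.05, and a log2 fold change of 1 is a doubling on the linear scale. These calls were frequent among all genes too: 53.9% of 13256 tested genes were called after 2 h of H2O2, 70.5% after 7 h of H2O2, 54.2% after 2 h of KCl, 68.8% after 7 h of KCl, and of 12747 genes 71% at 44 °C and 63.6% at 42 °C. By direction, 27.3% of genes were higher after 2 h of H2O2, 39.4% higher and 31.1% lower after 7 h of H2O2, 27.2% higher and 27% lower after 2 h of KCl, and 37.2% higher and 31.6% lower after 7 h of KCl. In heat, 35.4% were higher and 35.7% lower at 44 °C, and 31.7% were higher and 31.9% lower at 42 °C. Read against these shares by direction, 6 of 7 members were higher after 2 h of H2O2, 6 of 7 after 2 h of KCl with 1 lower, and 7 of 7 at 42 °C. After 7 h of H2O2 5 were higher and 2 lower, after 7 h of KCl 2 were higher and 4 lower, and at 44 °C 1 was higher and 3 lower. The 4 of 7 members called at 44 °C were no larger a share than the 71% of all genes. The median log2 fold change of all tested genes lay between -0.014 and 0.075 in these 6 comparisons. The comparisons of H2O2 and KCl with control share the same 2 control libraries, and the 2 heat comparisons share the 2 heat controls.

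**Figure D1:**
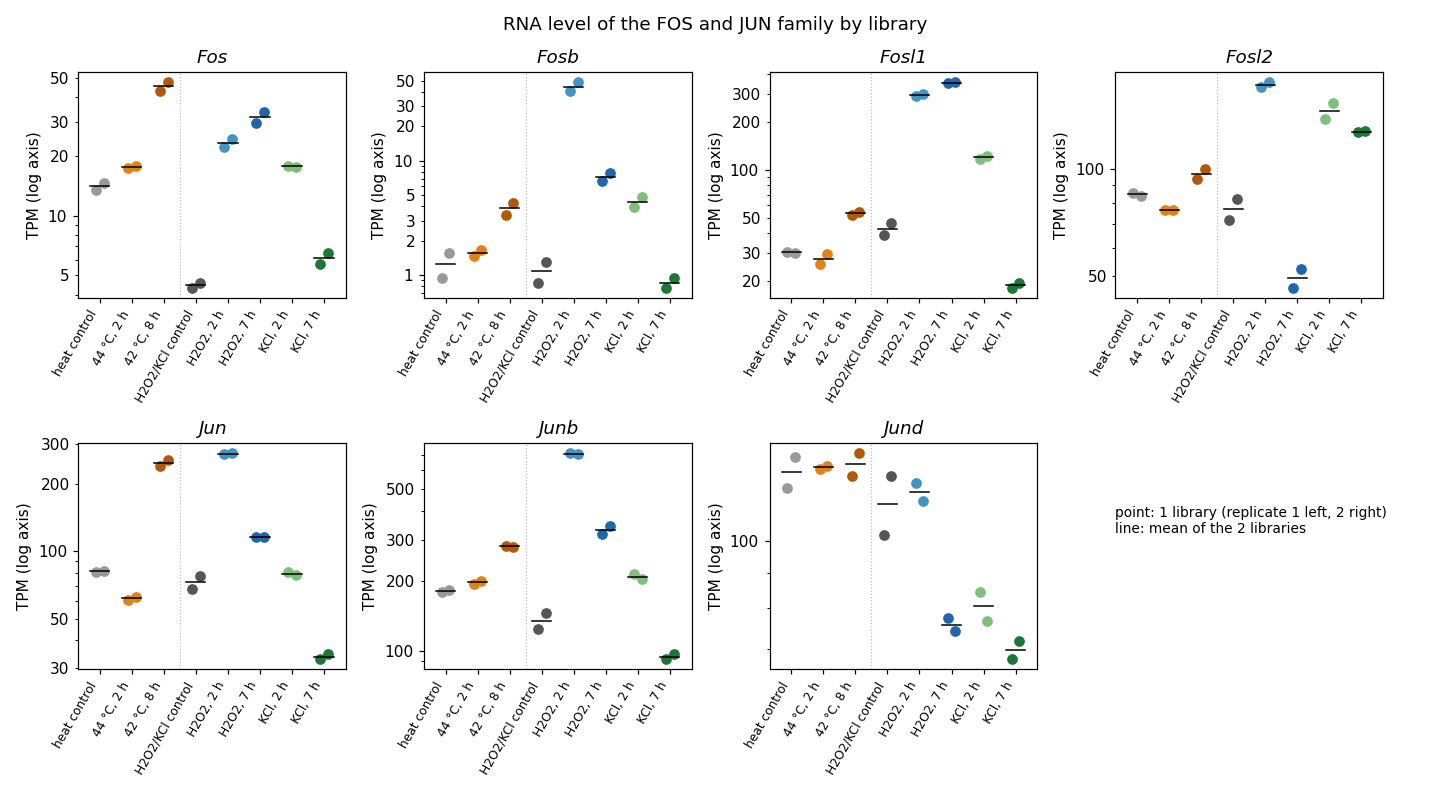
RNA level (TPM, log axis) of each of the 7 genes in each of the 16 libraries, by group; points are libraries, lines are means of the 2 libraries of a group, and the dotted line parts the heat experiment from the H2O2/KCl experiment. Fosb spans the widest range, from 0.780 TPM in a KCl 7 h library to 48.8 TPM in an H2O2 2 h library, and Jund the narrowest.

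Fos encodes the founding FOS protein and is the usual marker of an early response. Its RNA stood at 4.34 and 4.55 TPM in the H2O2/KCl controls, 22.3 and 24.5 after 2 h of H2O2, 29.4 and 33.7 after 7 h of H2O2, 17.9 and 17.6 after 2 h of KCl, and 5.70 and 6.51 after 7 h of KCl. All 8 stress libraries of this experiment were above both controls, and those of H2O2 after 7 h were the highest. In the heat experiment the Fos level was 13.5 and 14.7 TPM in the controls, 17.4 and 18.0 at 44 °C, and 43.05 and 47.5 at 42 °C, with no overlap between the groups. The log2 fold change of Fos RNA was 2.40 (SE 0.10) after 2 h of H2O2, 2.91 (SE 0.10) after 7 h, 2.10 (SE 0.11) after 2 h of KCl and 0.55 (SE 0.12, adjusted p 0.00103) after 7 h of KCl. At 42 °C it was 1.87 (SE 0.070, adjusted p 5.01e-11), and at 44 °C 0.27 (SE 0.077, adjusted p 0.00665). The 44 °C call ended without the first heat control library (log2 fold change 0.20). The heat controls carried more Fos RNA than the H2O2/KCl controls, and whether this is a difference of experiment or of batch cannot be told apart.

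Fosb encodes the FOS protein whose induction is, with that of Fos, the most dependent on stimulus. Without stress it was the lowest of the family, at 0.860 and 1.30 TPM in the H2O2/KCl controls (68 and 84 expected counts), and reached 40.5 and 48.8 TPM after 2 h of H2O2 (2099 and 2711 expected counts). By 7 h of H2O2 it was at 6.64 and 7.82 TPM, still above both controls, and KCl gave 3.92 and 4.80 TPM after 2 h and 0.780 and 0.940 after 7 h. The KCl 7 h libraries overlapped the controls. In heat, Fosb was at 0.940 and 1.56 TPM in the controls, 1.48 and 1.67 at 44 °C and 3.38 and 4.30 at 42 °C, so that the 44 °C libraries overlapped the controls and the 42 °C libraries did not. The log2 fold change of Fosb RNA was 5.37 (SE 0.16, adjusted p 6.57e-12) after 2 h of H2O2, a 41.4-fold difference and larger than that of 98.6% of the tested genes. It was 2.82 (SE 0.18) after 7 h of H2O2, 2.10 (SE 0.20) after 2 h of KCl, -0.23 (SE 0.27, adjusted p 0.467, not called) after 7 h of KCl, and 1.85 (SE 0.20) at 42 °C. The 44 °C value of 0.27 (SE 0.23, adjusted p 0.300) was not called and passed without the second heat control (0.68), and it was -0.083 without the first. With limma on log2(TPM + 1), which understates changes of low genes, it was 1.37 after 2 h of KCl and 1.11 at 42 °C, both called.

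Fosl1 encodes FRA-1, an AP-1 protein linked to migration and matrix remodelling. Its RNA was at 39.2 and 46.3 TPM in the H2O2/KCl controls, 290.2 and 300.3 after 2 h of H2O2, and 353 and 357 after 7 h, the highest level of any FOS gene in any group. KCl gave 118 and 123 TPM after 2 h and 18.3 and 19.6 after 7 h, so the osmotic libraries lay above both controls at the early time and below both at the late time. In heat the level was 30.6 and 30.1 TPM in the controls, 25.6 and 29.5 at 44 °C, and 52.4 and 54.8 at 42 °C. Fosl1 RNA had a log2 fold change of 2.79 (SE 0.073, adjusted p 2.99e-12) after 2 h of H2O2, 3.14 (SE 0.074) after 7 h, 1.59 (SE 0.072) after 2 h of KCl and -1.07 (SE 0.082, adjusted p 5.22e-08) after 7 h of KCl. It was 1.01 (SE 0.071) at 42 °C and -0.20 (SE 0.076, adjusted p 0.026) at 44 °C. The 44 °C call was lost with DESeq2 (-0.19), with limma on log2(TPM + 1) (-0.14), without the first 44 °C library (-0.085) and without the first control library (-0.20), and the value was -0.33 without the second 44 °C library.

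Fosl2 encodes FRA-2 and was the most abundant FOS transcript in the controls. It was at 72.0 and 82.4 TPM in the H2O2/KCl controls, 170.0 and 176 after 2 h of H2O2, and 46.4 and 52.2 after 7 h of H2O2, first above and then below both controls. KCl gave 138 and 153 TPM after 2 h and 127 and 128 after 7 h, all above the controls. Fosl2 was thus the only member that stayed high under KCl while it dropped below control under H2O2 after 7 h. The log2 fold change of Fosl2 RNA was 1.16 (SE 0.076) and -0.57 (SE 0.077, adjusted p 1.24e-05) after 2 h and 7 h of H2O2, and 1.01 (SE 0.076) and 0.82 (SE 0.076) after 2 h and 7 h of KCl. In heat Fosl2 was at 85.9 and 84.0 TPM in the controls, 76.8 and 76.5 at 44 °C and 93.7 and 99.9 at 42 °C, with log2 fold changes of -0.21 (SE 0.041) at 44 °C and 0.38 (SE 0.041) at 42 °C, the last being 0.19 with limma on log2(TPM + 1).

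Jun encodes c-JUN, the JUN protein activated by JNK kinases and an activator of its own promoter. Its RNA was at 67.7 and 77.8 TPM in the H2O2/KCl controls, 271 and 273 after 2 h of H2O2, and 116 and 115 after 7 h. KCl gave 80.3 and 78.1 TPM after 2 h, just above the higher control, and 33.1 and 34.6 after 7 h, below both. In heat the groups did not overlap, with 80.9 and 81.4 TPM in the controls, 60.8 and 62.6 at 44 °C, and 240.0 and 256 at 42 °C. Jun RNA had a log2 fold change of 1.90 (SE 0.066) and 0.75 (SE 0.065) after 2 h and 7 h of H2O2, and 0.22 (SE 0.066, adjusted p 0.012) and -1.0 (SE 0.068, adjusted p 1.65e-08) after 2 h and 7 h of KCl. It was -0.46 (SE 0.046, adjusted p 6.01e-07) at 44 °C and 1.80 (SE 0.044, adjusted p 5.87e-13) at 42 °C, opposite signs in the 2 heat groups. The call after 2 h of KCl was lost without the first control library (0.12), without the first KCl 2 h library (0.19) and with limma on log2(TPM + 1) (0.12).

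Junb encodes a JUN protein that is often described as a weaker activator than c-JUN and a counterweight to it. It had the highest RNA level of the family in every group but 7 h of H2O2, where Fosl1 was above it, and 7 h of KCl, where Fosl2 was. Junb was at 124 and 146 TPM in the H2O2/KCl controls, 711 and 704 after 2 h of H2O2, 320.1 and 345 after 7 h of H2O2, 214 and 204 after 2 h of KCl, and 92.4 and 96.6 after 7 h of KCl. No stress group overlapped the controls, and only KCl after 7 h lay below them. The log2 fold change of Junb RNA was 2.39 (SE 0.075) and 1.38 (SE 0.073) after 2 h and 7 h of H2O2, and 0.73 (SE 0.073) and -0.41 (SE 0.074, adjusted p 1.87e-04) after 2 h and 7 h of KCl. In heat Junb was at 179 and 183 TPM in the controls, 195 and 199.8 at 44 °C, and 284 and 282 at 42 °C. The log2 fold change at 42 °C was 0.83 (SE 0.042), and that at 44 °C was 0.063 (SE 0.042, adjusted p 0.198) and was not called. The 44 °C value passed with limma on log2(TPM + 1) (0.13) and was 0.025 without the second 44 °C library.

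Jund encodes the JUN protein that is usually not an immediate early gene, and it varied least. Its highest group mean was 1.84 times its lowest, against 51.9 times for Fosb, 18.7 times for Fosl1 and 10.2 times for Fos. Jund RNA was at 102 and 123 TPM in the H2O2/KCl controls, 121 and 114 after 2 h of H2O2, 77.4 and 74.2 after 7 h of H2O2, 84.5 and 76.7 after 2 h of KCl, and 67.8 and 71.8 after 7 h of KCl. The 2 h H2O2 libraries lay within the control range, and the other 3 groups lay below both controls. Jund RNA had a log2 fold change of 0.060 (SE 0.081, adjusted p 0.557, not called) and -0.49 (SE 0.082) after 2 h and 7 h of H2O2, and -0.39 (SE 0.082) and -0.59 (SE 0.083) after 2 h and 7 h of KCl, and the KCl 2 h value was -0.25 without the second control library. In heat its groups overlapped in TPM, from 119 and 132 in the controls to 127 and 128 at 44 °C and 124 and 133 at 42 °C. The called difference at 42 °C (log2 fold change 0.23, SE 0.052) was not kept on log2(TPM + 1) with limma (0.038), a scale on which the median of all genes was -0.16 instead of -0.014.

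Ordered by mean RNA level over the 8 groups, Fosl1 ran from 7 h of H2O2 through 2 h of H2O2, 2 h of KCl, 42 °C, the H2O2/KCl control, the heat control and 44 °C to 7 h of KCl, and no neighbours in this order overlapped. Jun and Junb had no overlapping neighbours either and were both highest after 2 h of H2O2 and lowest after 7 h of KCl. Fos was highest at 42 °C and lowest in the H2O2/KCl control, and only 2 h of KCl and 44 °C overlapped. Fosb was highest after 2 h of H2O2, and its 44 °C, heat control, H2O2/KCl control and KCl 7 h groups overlapped in turn, as did 2 h of KCl and 42 °C. Fosl2 was highest after 2 h of H2O2 and lowest after 7 h of H2O2, with overlap between the H2O2/KCl control and 44 °C. The 5 highest Jund groups overlapped in turn, and so did 2 h of KCl and 7 h of H2O2. This order sets levels from separate experiments side by side.

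For each agent, the 7 h libraries were compared directly with the 2 h libraries. A lower level after 7 h is not by itself a return to control, and Jund had no called rise after 2 h. Under KCl all 7 members were lower after 7 h than after 2 h, against 33.7% of 13256 genes lower and 35.1% higher (68.8% called), with log2 differences from -2.66 (SE 0.081) for Fosl1 and -2.34 (SE 0.23) for Fosb to -0.20 (SE 0.084) for Jund and -0.18 (SE 0.075) for Fosl2. The Fosl2 and Jund calls rested on adjusted p of 0.0456 and 0.046. Without 1 library the Fosl2 difference lost its call 3 times, at -0.11 without the second KCl 2 h library, -0.19 without the first KCl 7 h library and -0.17 without the second. The Jund difference lost its call at -0.12 without the first KCl 2 h library, -0.17 without the first KCl 7 h library and -0.23 without the second, and both calls were lost with limma on log2(TPM + 1), where the Fosb difference was -1.52. Under H2O2, Fosb (-2.55, SE 0.13), Fosl2 (-1.73, SE 0.078), Jun (-1.15, SE 0.065), Junb (-1.01, SE 0.072) and Jund (-0.55, SE 0.082) were lower after 7 h than after 2 h. Fos (0.51, SE 0.087) and Fosl1 (0.35, SE 0.066) were higher after 7 h, while 73.4% of all genes differed between these durations (37.3% higher and 36.1% lower).

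The 2 agents were also compared with each other at each duration. After 2 h, 6 members were higher under H2O2 than under KCl, with log2 differences of 3.27 (SE 0.14) for Fosb, 1.69 (SE 0.066) for Jun, 1.66 (SE 0.073) for Junb, 1.20 (SE 0.069) for Fosl1, 0.45 (SE 0.083) for Jund and 0.30 (SE 0.091) for Fos, while 27% of all genes were higher. The Fosl2 difference of 0.16 (SE 0.075, adjusted p 0.097) was not called, with 51.3% of all genes called in either direction. It passed with the replicate number as a block, with limma on log2(TPM + 1) (0.25) and without the second KCl 2 h library (0.22), and it was 0.090 without the first. The Fos difference lost its call without the second H2O2 2 h library (0.23) or the second KCl 2 h library (0.28). After 7 h the largest difference was that of Fosl1, 4.21 (SE 0.082), followed by Fosb at 3.06 (SE 0.21), Fos at 2.35 (SE 0.10), Junb at 1.79 (SE 0.075) and Jun at 1.75 (SE 0.069). Fosl2 was lower under H2O2 after 7 h by a log2 difference of -1.39 (SE 0.078), Jund did not pass (0.10, SE 0.084, adjusted p 0.284), and 78.4% of all genes were called (41% higher and 37.4% lower). As the doses are not given, the comparison is between the 2 treatments as applied.

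The 2 heat treatments differed for all 7 members, each higher at 42 °C for 8 h, against 37.9% of all genes higher and 37.2% lower (75.1% called in either direction). The log2 difference was 2.26 (SE 0.046) for Jun, 1.61 (SE 0.070) for Fos, 1.58 (SE 0.20) for Fosb, 1.21 (SE 0.073) for Fosl1, 0.77 (SE 0.042) for Junb, 0.59 (SE 0.041) for Fosl2 and 0.26 (SE 0.052) for Jund. With limma on log2(TPM + 1), where the median of all genes was -0.20, the Jund difference was 0.012 and lost its call, that of Fosb was 0.90 and that of Fosl2 0.33.

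The makeup of the family shifted with the stress. The 4 FOS genes took 28.2% of the family's summed RNA TPM in the H2O2/KCl control (28.4% and 27.9% in the 2 libraries), 32.8% after 2 h of H2O2, 45.8% after 7 h of H2O2, 43.9% after 2 h of KCl and 43.6% after 7 h of KCl. The 2 agents reached these late shares through different genes: Fosl1 made up 36.7% of the family after 7 h of H2O2 and 5.39% after 7 h of KCl, while Fosl2 made up 5.1% and 36.3%. The family's summed level was 446 TPM in the control, 1633 TPM after 2 h of H2O2, 967 TPM after 7 h of H2O2, 657 TPM after 2 h of KCl and 352 TPM after 7 h of KCl. In heat the FOS share stayed between 22.9% and 25.7% in all 6 libraries, and Jun rose from 15.7% of the family in the control to 28.9% at 42 °C. The shares in the footprint libraries did not follow those in RNA. There the FOS genes took 43.1% in the control (39.8% and 46.3% in the 2 libraries). Under H2O2 their footprint share was 26.2% after 2 h and 39.2% after 7 h. Under KCl it was 42.0% after 2 h and 51.0% after 7 h.

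**Figure D2:**
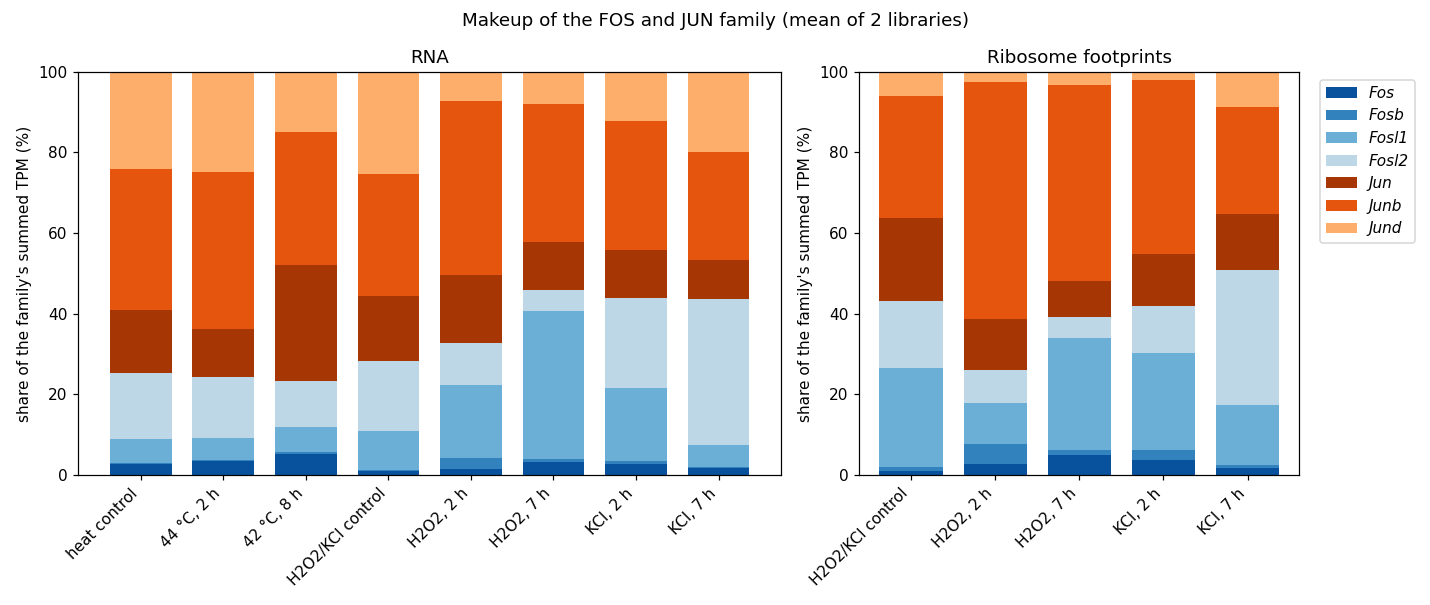
Share of each gene in the family's summed TPM (percent, mean of the 2 libraries of a group), for RNA in 8 groups and footprints in 5 groups; blue shades are FOS genes, orange shades JUN genes. Fosl1 takes the largest blue share after 7 h of H2O2 and Fosl2 after 7 h of KCl.

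Ribosome footprints, the mRNA fragments covered by ribosomes, were measured in the H2O2/KCl experiment. After 2 h of H2O2 and after 2 h of KCl 3 members were called higher in footprints: Fos, Fosb and Junb. The background was low, since 1.91% of 10545 tested genes were called after 2 h of H2O2 (1.14% higher) and 6.86% after 2 h of KCl (1.79% higher). By 7 h of H2O2, Fos, Fosb, Fosl1 and Junb were higher and Fosl2 lower (27.7% of genes called, 17.2% higher and 10.6% lower). After 7 h of KCl, Fosb, Fosl1, Jun and Junb were lower and none was higher (20.4% of genes called, 9.83% lower).

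Fos footprints were at 9.55 and 5.70 TPM in the controls, 68.4 and 44.2 after 2 h of H2O2, 59.1 and 79.4 after 7 h of H2O2, 49.3 and 34.4 after 2 h of KCl, and 5.20 and 4.67 after 7 h of KCl. The 6 libraries of the first 3 stress groups were above both controls and those of KCl after 7 h below both. The log2 fold change of Fos footprints was 2.91 (SE 0.32, adjusted p 4.47e-04) and 3.07 (SE 0.32) after 2 h and 7 h of H2O2, 2.49 (SE 0.32) after 2 h of KCl, and -0.60 (SE 0.39, adjusted p 0.301, not called) after 7 h of KCl, where Fos had only 16 and 19 expected counts.

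Fosb footprints rose from 5.20 and 7.97 TPM in the controls to 99.6 and 99.5 after 2 h of H2O2. They were at 16.1 and 22.4 TPM after 7 h of H2O2, 28.0 and 23.0 after 2 h of KCl, and 1.48 and 2.90 after 7 h of KCl, where the libraries lay below both controls on 4 and 7 expected counts. Fosb footprints had a log2 fold change of 3.87 (SE 0.29, adjusted p 2.48e-05) and 1.24 (SE 0.31) after 2 h and 7 h of H2O2, and 1.73 (SE 0.30) and -1.73 (SE 0.43, adjusted p 0.0139) after 2 h and 7 h of KCl. Calls of Fosb depended on single libraries. That after 7 h of H2O2 was lost without the first control (0.94) or the second H2O2 7 h library (0.85). That after 2 h of KCl was lost without the first control (1.53), and that after 7 h of KCl without the second control (-1.44) or either KCl library (-1.57 and -1.97).

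Junb had the highest mean footprint level of the family in every group but 7 h of KCl, where Fosl2 was above it. It was at 209 and 234 TPM in the controls and 1302 and 1061 after 2 h of H2O2. The level was 571 and 814 TPM after 7 h of H2O2, 546 and 403 after 2 h of KCl, and 92.7 and 70.4 after 7 h of KCl, with no overlap with the controls in any group. The log2 fold change of Junb footprints was 2.48 (SE 0.25, adjusted p 1.93e-04) and 1.54 (SE 0.24) after 2 h and 7 h of H2O2, and 1.14 (SE 0.24, adjusted p 0.0128) and -1.41 (SE 0.25) after 2 h and 7 h of KCl. The KCl 2 h call was lost without the first control (1.08) or the first KCl 2 h library (0.96).

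Fosl1 footprints differed from the RNA most plainly after 2 h of H2O2. They were at 138 and 229 TPM in the controls and 196 and 208 after 2 h of H2O2, within the control range, although Fosl1 RNA was 6.92-fold higher there. By 7 h of H2O2 they were at 341 and 442 TPM, after 2 h of KCl at 262 and 262, and after 7 h of KCl at 47.7 and 43.9, below both controls. Fosl1 footprints had a log2 fold change of 0.20 (SE 0.25, adjusted p 0.738) and 0.98 (SE 0.25, adjusted p 0.0096) after 2 h and 7 h of H2O2, and 0.56 (SE 0.25, adjusted p 0.223) and -1.98 (SE 0.27, adjusted p 3.98e-04) after 2 h and 7 h of KCl. The call after 7 h of H2O2 was lost without the first control (0.58) or the second H2O2 7 h library (0.67), and the uncalled KCl 2 h value passed without the second control (1.02) and was 0.26 without the first.

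Jun footprints were at 154 and 149 TPM in the controls, 306 and 200.2 after 2 h of H2O2, 129 and 114 after 7 h of H2O2, 157 and 123 after 2 h of KCl, and 43.4 and 39.9 after 7 h of KCl. Both 2 h H2O2 libraries were above the controls, but the log2 fold change of 0.80 (SE 0.21) had an adjusted p of 0.0688 in edgeR and was not called. It passed with DESeq2 (0.81) and without the second H2O2 2 h library (1.07), and it was 0.47 without the first. After 7 h of H2O2 it was -0.43 (SE 0.21, adjusted p 0.143) and after 7 h of KCl -1.83 (SE 0.22, adjusted p 2.22e-04).

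Fosl2 and Jund, the steadier members, moved less in footprints. Fosl2 was at 113 and 130.0 TPM in the controls, 156 and 169.6 after 2 h of H2O2, 73.5 and 74.7 after 7 h of H2O2, 137 and 120.4 after 2 h of KCl, and 101 and 103 after 7 h of KCl. Only the value after 7 h of H2O2 was called (log2 fold change -0.83, SE 0.18, adjusted p 0.004), and that after 2 h of H2O2 was 0.49 (SE 0.18, adjusted p 0.185). Jund was at 38.5 and 48.8 TPM in the controls, 60.7 and 42.5 after 2 h of H2O2, 47.9 and 45.2 after 7 h of H2O2, 25.4 and 21.3 after 2 h of KCl, and 30.7 and 22.9 after 7 h of KCl. The KCl libraries of Jund lay below both controls, with log2 fold changes of -0.77 (SE 0.25, adjusted p 0.0918) and -0.61 (SE 0.25, adjusted p 0.0954) after 2 h and 7 h that did not pass.

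**Figure D3:**
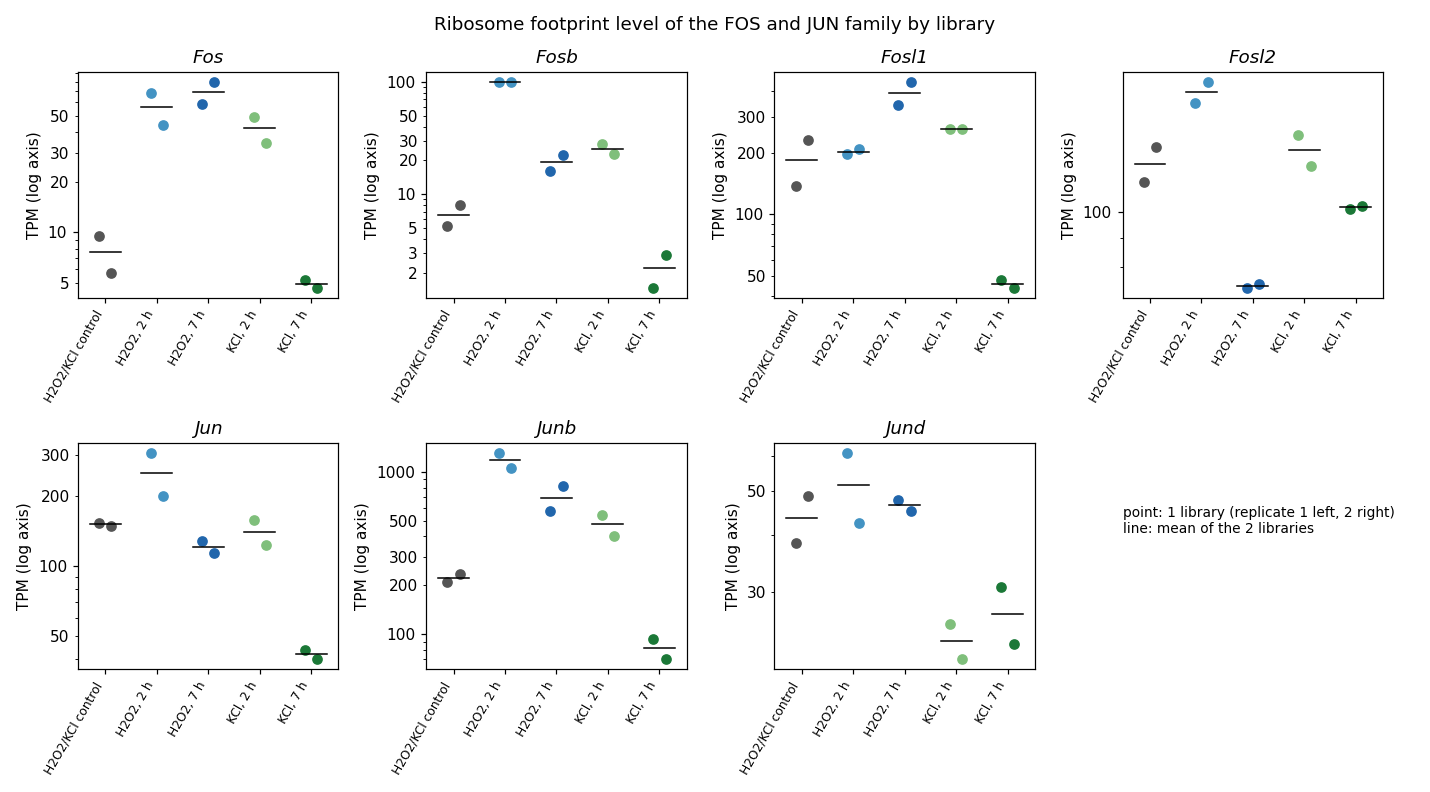
Footprint level (TPM, log axis) of each of the 7 genes in each of the 10 footprint libraries; points are libraries and lines are means of the 2 libraries of a group. Fosl1 after 2 h of H2O2 (196 and 208 TPM) lies between its 2 control libraries, while Fos, Fosb and Junb lie above theirs.

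Translational efficiency is the footprint level of a gene relative to its RNA level, and a change in it was tested as an interaction in 1 model over both kinds of library. No member had a called increase under either agent. After 2 h of H2O2 it fell for 4 members (Fosb, Fosl1, Fosl2 and Jun), against 11.4% of 10480 genes called and 7.46% lower. By 7 h of H2O2 it fell for Fosb, Fosl1 and Jun (9.27% called, 4.57% lower), after 2 h of KCl for Fosl1 and Fosl2 (12.8% called, 9.18% lower), and after 7 h of KCl for Fosl2, Jun and Junb (5.57% called, 3.88% lower). The median log2 change over all genes lay between -0.021 and 0.057.

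Fosl1 had the largest drop of the 7 under H2O2 at both durations. Its ratio of footprint to RNA TPM was 4.29 in the control (2.97 to 5.84 over the 4 pairings of a footprint with an RNA library), 0.684 after 2 h of H2O2 (0.652 to 0.717) and 1.10 after 7 h (0.956 to 1.25), without overlap with the control. Under KCl it was 2.18 after 2 h (2.13 to 2.23) and 2.41 after 7 h (2.23 to 2.61). The log2 change in efficiency of Fosl1 was -2.62 (SE 0.27, adjusted p 2.45e-05) after 2 h of H2O2, lower than that of all but 0.649% of the genes, and -2.15 (SE 0.27, adjusted p 1.89e-04) after 7 h. It was -1.04 (SE 0.27, adjusted p 0.0158) after 2 h of KCl and -0.88 (SE 0.29, adjusted p 0.0872, not called) after 7 h of KCl. The KCl 2 h call was lost without the second footprint control (-0.58), the first RNA control (-0.93) or the second RNA library of KCl 2 h (-1.01). The KCl 7 h value passed with DESeq2 and without the first footprint control (-1.23), and it was -0.42 without the second.

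Jun showed the same direction under H2O2. Its footprint to RNA ratio was 2.08 in the control, 0.93 after 2 h and 1.05 after 7 h of H2O2, with ranges over pairings of 1.92 to 2.27, 0.734 to 1.13 and 0.985 to 1.12. The log2 change in efficiency of Jun was -1.15 (SE 0.21, adjusted p 0.00251) and -1.18 (SE 0.21, adjusted p 0.0026) after 2 h and 7 h of H2O2. Under KCl it was -0.29 (SE 0.21, adjusted p 0.416) after 2 h and -0.80 (SE 0.22, adjusted p 0.045) after 7 h, and the latter was lost in 10 of 15 alternatives, among them 8 in which 1 library was left out (-0.70 to -0.89).

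Fosb had a called drop under H2O2 of -1.53 (SE 0.37, adjusted p 0.0147) after 2 h and -1.57 (SE 0.40, adjusted p 0.0222) after 7 h. Its footprint to RNA ratio went from 6.10 in the control (4 to 9.27 over pairings) to 2.23 and 2.66. Both calls were lost with limma voom when each assay had its own weight, which was chosen after seeing the data (-1.57 and -1.62), and with limma on log2(TPM + 1) (-0.70 and -0.57). The 2 h call was lost without the second footprint control (-1.26) or the first RNA control (-1.22). The 7 h call was lost without either of these libraries (-1.26 and -1.24), the first footprint library (-1.30) or the second RNA library (-1.41) of H2O2 7 h.

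Fosl2 efficiency fell by 0.71 (SE 0.17, adjusted p 0.0155) after 2 h of H2O2 on the log2 scale, and by 0.89 (SE 0.18, adjusted p 0.0029) and 1.02 (SE 0.18, adjusted p 0.00291) after 2 h and 7 h of KCl. Its value after 7 h of H2O2, -0.26 (SE 0.18, adjusted p 0.408), was not called. The H2O2 2 h call was lost without the second footprint control (-0.57), the first RNA control (-0.62) or the second RNA library of H2O2 2 h (-0.69). Under KCl, Fosl2 RNA was 1.77-fold higher after 7 h while the footprint value, -0.22 (SE 0.18) on the log2 scale, was not called.

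For Junb and Fos no change in efficiency was called under H2O2. The log2 change in efficiency of Junb was 0.049 (SE 0.26, adjusted p 0.93) and 0.16 (SE 0.26, adjusted p 0.761) after 2 h and 7 h of H2O2, and that of Fos 0.41 (SE 0.35, adjusted p 0.482) and 0.17 (SE 0.35, adjusted p 0.822). A miss of the threshold with these standard errors does not show that efficiency was unchanged. After 7 h of KCl the value of Junb was -0.98 (SE 0.27, adjusted p 0.0401), a call lost in 8 of 15 alternatives. Among them were the fit with the replicate number as a block, limma on log2(TPM + 1) (-0.94) and 6 in which 1 library was left out (-0.78 to -1.08). Fos (-1.14, SE 0.48, adjusted p 0.176) and Fosb (-1.48, SE 0.63, adjusted p 0.18) were not called there, on the few footprint counts given above. Jund had the lowest footprint to RNA ratio of the family in the control, 0.388, and none of its changes in efficiency was called.

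**Figure D4:**
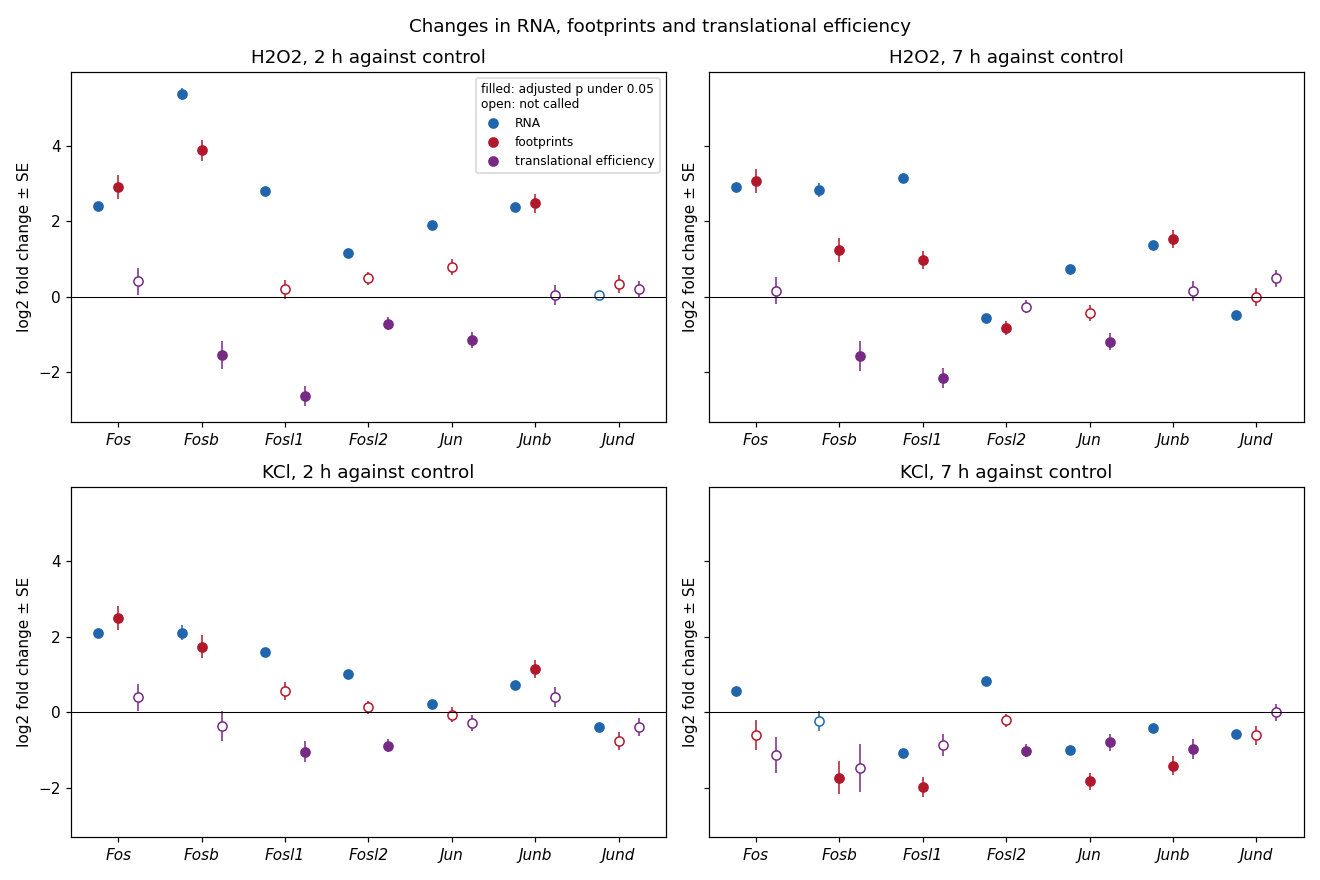
Log2 fold change with SE bars of RNA (blue), footprints (red) and translational efficiency (purple) for the 7 genes, after 2 h and 7 h of H2O2 and KCl against the shared control; filled points have an adjusted p under 0.05. For Fosl1 after 2 h of H2O2 the RNA point is at 2.79, the footprint point at 0.20 and the efficiency point at -2.62.

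Footprint levels after 7 h were also compared with those after 2 h. Under KCl, 5 members were lower after 7 h, against 8.43% of genes lower (20.6% called): Fosb by a log2 difference of -3.47 (SE 0.38), Fos -3.09 (SE 0.35), Junb -2.55 (SE 0.25), Fosl1 -2.54 (SE 0.27) and Jun -1.77 (SE 0.22). Under H2O2, Fosb (-2.63, SE 0.26), Fosl2 (-1.32, SE 0.18), Jun (-1.23, SE 0.21) and Junb (-0.94, SE 0.24) were lower and Fosl1 (0.78, SE 0.25) higher after 7 h, with 29.8% of genes called. The Fosl1 call was lost without either H2O2 2 h library (0.73 and 0.83) or the second H2O2 7 h library (0.48), and that of Junb without the first library of either duration (-0.79 and -0.70).

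Other genes of the AP-1 pathway were followed through lists that were drawn up with earlier results of these data known. The genes named are called genes with a mean log2 CPM of at least 3, and genes below that level can have larger changes. Among bZIP genes whose proteins pair or compete with FOS and JUN, 13 of 19 were higher and 1 lower in RNA after 2 h of H2O2, with a list median log2 fold change of 0.33, against 27.3% of all genes higher. Atf3, a stress-induced partner of JUN, changed by 5.06 (SE 0.09), the small MAF genes Maff and Mafk by 2.57 and 2.36, and Ddit3, the gene of CHOP, by 1.37. After 2 h of KCl, 10 were higher and 4 lower, against 27.2% and 27% of all genes, with Maff at 2.37, Atf3 at 2.25 and Mafk at 2.19. After 7 h, 14 were higher and 4 lower under H2O2, with Atf3 at 2.67 and Ddit3 at 2.63, and 14 were higher and 1 lower under KCl, with Atf6 (1.85), a sensor of endoplasmic reticulum stress, among them. Of all genes, 39.4% were higher after 7 h of H2O2 and 37.2% after 7 h of KCl. At 42 °C, 7 were higher and 7 lower, near the 31.7% and 31.9% of all genes, with Atf3 at 4.21 and Atf5 at -1.88, and at 44 °C Atf3 was at 0.97.

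Of 20 kinase genes of the JNK, p38 and ERK routes above AP-1, 1 was higher and 7 lower after 2 h of H2O2 (Map2k3 0.53, Map3k11 -0.78), where 27.3% of all genes were higher and 26.5% lower. After 2 h of KCl, 2 were higher and 6 lower, against 27.2% and 27% of all genes. By 7 h of H2O2, 7 were higher and 8 lower, near the 39.4% and 31.1% of all genes, with Map2k4, which activates JNK, at 1.21 and Mapk9, the gene of JNK2, at 1.17. Of 13 factors that act on the Fos and Jun promoters, 10 were higher and 1 lower after 7 h of KCl. Of all genes, 37.2% were higher and 31.6% lower there. Among these factors, Crem was at 2.39, Elk4 at 1.72 and Mkl1 at 1.32. After 7 h of H2O2, 3 of the factors were higher and 7 lower, against 39.4% and 31.1% of all genes, and Stat3 was at -1.31. Srf, the CArG box factor of the Fos promoter, was higher in RNA after 2 h of H2O2 (0.68) and of KCl (0.47). Its efficiency was lower in all 4 comparisons, at -1.32 and -1.36 after 2 h and 7 h of H2O2 and -2.30 and -2.47 after 2 h and 7 h of KCl.

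Of 11 genes of AU-rich mRNA decay, 6 were higher and 2 lower in RNA after 2 h of H2O2 (27.3% and 26.5% of all genes). After 2 h of KCl 8 were higher and 2 lower (27.2% and 27%). By 7 h, 5 were higher and 3 lower under H2O2 (39.4% and 31.1%), and 7 and 3 under KCl (37.2% and 31.6%). Zfp36, whose protein tristetraprolin removes such mRNAs, was higher in RNA (2.54, SE 0.09) and in footprints (3.44, SE 0.29) after 2 h of H2O2. Zfp36l1 was higher in RNA after 2 h of KCl (1.60) and after 7 h of both agents (1.22 each). At 44 °C 8 of these decay genes were higher and 3 lower (35.4% and 35.7% of all genes), with Hnrnpd at -1.45 and Zfp36l2 at -0.81. At 42 °C 7 were higher and 1 lower (31.7% and 31.9%). Of 9 genes for the turnover of FOS and JUN proteins, all 9 were higher at 42 °C (list median 0.26), where 31.7% of all genes were. At 44 °C 3 were higher and 5 lower (35.4% and 35.7% of all genes), and after 2 h of H2O2 none and 1 (27.3% and 26.5%). After 7 h of H2O2 3 were higher and 3 lower, near the 39.4% and 31.1% of all genes. Under KCl 3 were higher and 4 lower after 2 h (27.2% and 27% of all genes). After 7 h of KCl 5 were higher and 3 lower (37.2% and 31.6%). After 7 h of H2O2, Fbxw7, the ubiquitin ligase subunit that marks JUN for destruction, was higher in RNA (1.17, SE 0.08), in footprints (4.37, SE 0.42) and in efficiency (3.22, SE 0.31).

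Textbook AP-1 targets were mostly higher in RNA under H2O2. After 2 h, 19 of 23 were higher and 1 lower (list median 1.21), against 27.3% and 26.5% of all genes, with the cytokine gene Lif at 5.98 (SE 0.14), Hmox1 at 3.26, Hbegf at 3.19 and Vegfa at 3.0. By 7 h of H2O2, 15 were higher and 4 lower, against 39.4% and 31.1% of all genes, with Lif at 4.76 and the urokinase gene Plau at 3.83. KCl gave 15 higher and 2 lower after 2 h, against 27.2% and 27% of all genes, with Dusp1 at 2.06. After 7 h of KCl 10 were higher and 10 lower, against 37.2% and 31.6%, with Ccnd1, the cyclin D1 gene, at -2.20. At 42 °C 16 of 22 were higher and 3 lower, against 31.7% and 31.9% of all genes, with Dusp1 at 2.85. At 44 °C 7 were higher and 9 lower, near the 35.4% and 35.7% of all genes. In efficiency, 7.46% of all genes were lower after 2 h of H2O2 and 9.18% after 2 h of KCl. Of 21 targets, 10 were lower and none higher after 2 h of H2O2 (list median -1.16), with Lif at -4.26. After 2 h of KCl, 8 targets were lower (list median -1.05). The targets are controlled by other factors too.

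Genes with the RNA pattern most like each member were ranked by Pearson's r over the 12 stress RNA libraries, which come in 6 groups of 2 and share depth and library source within an experiment, on log2(CPM + 1) less the mean of the controls of the same experiment, where CPM is the count scaled to library size. These correlations describe shared group differences and carry no test. Each r given is the highest among 9239 candidate genes (9240 for Fosb), and how high it would be for other genes was not tested. Fosb was most like Junb (r = 0.98), the closest match of any member to another. Jun was most like Atf3 (0.99), Junb like Ifrd1 (0.99), Fosl2 like Dusp16 (0.99), Fos like Vps25 (0.99), Fosl1 like Lrrc8b (0.99) and Jund like Srprb (0.95).

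Transcription past the ends of the members was taken from the authors' deposited calls for 6399 pairs of neighbouring genes, of which 4 have a member upstream and 2 a member downstream. A downstream-of-gene call (DoG) marks transcription beyond a gene's end, and a read-in call marks such transcription reaching the next gene. Fosl1, upstream of Fibp, had a read-in call in both H2O2 2 h libraries and in no other RNA library, and these were the only read-in calls among the members' pairs. DoG calls of Fosl1 were more widespread, in both libraries of 2 h and 7 h of H2O2, 2 h of KCl and 42 °C. Each of the 2 control groups had 1 library with a DoG call of Fosl1, and 44 °C and 7 h of KCl had none. The authors' deposited estimate for this pair, a ratio whose formula the sources do not state, was 0.0827 and 0.128 in those libraries, 0.0683 and 0.0661 after 2 h of KCl, 0.0105 and 0.0136 after 7 h of H2O2, and 0 and 0.00127 in the controls. Read-in was called for 2.52% and 2.44% of pairs in the 2 H2O2 2 h libraries, 121 pairs had it in both, and 24 of these had it in none of the other 14 libraries. Fibp itself, at 53.5 and 46.7 TPM there, was below its controls (68.1 and 68.4 TPM). Fosl2, upstream of Plb1, had a DoG call in both libraries of 2 h of H2O2, 2 h of KCl and the heat control and in no other library. Jund, upstream of Iqcn, had one in both KCl 2 h libraries and in 1 library at 44 °C. DoG calls were common, at 34.4% and 35.7% of pairs after 2 h of H2O2 and 24.2% and 25.2% in its controls. They were made for 19.4% and 21.2% of pairs after 7 h of H2O2 and 31.9% and 34.7% after 2 h of KCl. In heat the shares were 32.0% and 30.5% at 42 °C, 32.7% in both libraries at 44 °C, and 27.9% and 26.5% in the controls.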

How the data were processed

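Poly(A)-selected RNA libraries and ribosome footprint libraries of NIH3T3 cells were deposited as tables of expected counts (estimated read counts per gene) and TPM made by the authors. STAR, RSEM and Bowtie and the build mm10 are named in the submitters' processing notes, without versions or roles. The authors' deposited true or false DoG and read-in calls and their read-in ratio per gene pair were used as given. Another 12 columns of per-sample values in the footprint tables were not used. Expected counts were rounded, filtered with filterByExpr, scaled by TMM and tested with edgeR 4.0.16's quasi-likelihood test in R 4.3.3, with Benjamini-Hochberg adjustment over all genes tested (12747 in heat, 13256 for H2O2/KCl RNA, 10545 for footprints, 10480 for efficiency) and a threshold of 0.05. Efficiency was an interaction term in 1 model over 20 libraries. Scripts were tested on simulated data. Alternatives used DESeq2 1.42.0, limma 3.58.1 on log2(TPM + 1), no filter, the replicate number as a block, only the groups compared, and each library left out.

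The members and lists were chosen with earlier results of these data known. All 7 members are described. From each list at most 4 called genes with the largest change and a mean log2 CPM of at least 3 were named, and the 3 genes most like each member were ranked. Replicates differed beyond sampling noise (chi-square per gene 3.16 to 12.0) and none were identical. Deviations of samples with the same replicate number were correlated by r from -0.025 to 0.12 in heat, -0.053 to 0.054 in H2O2/KCl RNA and -0.38 to 0.42 (median 0.20) in footprints. As not every pair of groups was above 0.1, the numbers were not taken as pairs. The promoter strings for MEF2 and the heat shock element were reworded (to a general MEF2 site and a shorter string) after a first search had been seen.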

Additional observations from a re-analysis of the deposited data

Results flagged for a closer look

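The effect of each agent against the shared control differed between 2 h and 7 h for the genes named here, by the test of the difference itself (edgeR's quasi-likelihood test, Benjamini-Hochberg adjusted over all genes). In RNA under H2O2 the log2 difference of 7 h less 2 h was 0.51 for Fos, -2.55 for Fosb, 0.35 for Fosl1, -1.73 for Fosl2, -1.15 for Jun, -1.01 for Junb and -0.55 for Jund. In RNA under KCl it was -1.54 for Fos, -2.34 for Fosb, -2.66 for Fosl1, -0.18 for Fosl2, -1.22 for Jun, -1.14 for Junb and -0.20 for Jund. The Fosl2 and Jund calls under KCl lay close to the threshold and were lost under some alternatives.

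In footprints under H2O2 the log2 difference was -2.63 for Fosb, 0.78 for Fosl1, -1.32 for Fosl2, -1.23 for Jun and -0.94 for Junb, and the calls of Fosl1 and Junb were lost under some alternatives. In footprints under KCl the difference was -3.09 for Fos, -3.47 for Fosb, -2.54 for Fosl1, -1.77 for Jun and -2.55 for Junb. Groups of 2 libraries are too small for a search for single samples that stand apart.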

How the results depend on the processing

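Of 147 values of the members, 107 were called, 21 of these lost their call under at least 1 alternative (8 in RNA, 7 in footprints and 6 in efficiency), and no called value changed sign. The sign of 15 uncalled values turned under some setting, and the cause was not tested. With limma on log2(TPM + 1) it turned for Jund RNA at 44 °C (0.026) and Fosb efficiency after 2 h of KCl (0.45). For Jund footprints after 7 h of H2O2 it turned with no filter (-0.032), with only the groups compared (-0.0015) and with the replicate block (-0.0081). The numbers were not taken as pairs, and the replicate block otherwise gained the call of Fosl2 RNA in H2O2 against KCl after 2 h (0.16) and lost that of Junb efficiency after 7 h of KCl (-0.98).

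Leaving out each library in turn, RNA values with a turned sign ranged from -0.083 to 0.68 for Fosb and -0.12 to 0.034 for Jund at 44 °C, from -0.070 to 0.19 for Jund after 2 h of H2O2 and from -0.55 to 0.093 for Fosb after 7 h of KCl. In footprints the ranges were -0.15 to 0.65 for Fosl1 after 2 h of H2O2, -0.17 to 0.13 for Jund after 7 h of H2O2, -0.19 to 0.057 for Jun after 2 h of KCl, -0.18 to 0.47 for Fos after 7 h less 2 h of H2O2 and -0.092 to 0.38 for Jund after 7 h less 2 h of KCl. In efficiency they were -0.10 to 0.18 for Junb and -0.023 to 0.50 for Jund after 2 h of H2O2, -0.13 to 0.55 for Fos and -0.19 to 0.42 for Junb after 7 h of H2O2, and -0.23 to 0.24 for Jund after 7 h of KCl.

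The number of members called ranged from 2 to 5 at 44 °C (4 with all libraries). In footprints it ranged from 3 to 5 after 7 h of H2O2 (5), 1 to 4 after 2 h of KCl (3) and 3 to 4 for 7 h against 2 h of H2O2 (5). In efficiency it ranged from 2 to 4 after 2 h of H2O2 (4), 1 to 2 after 2 h of KCl (2) and 1 to 3 after 7 h of KCl (3), where limma on log2(TPM + 1) called 1.

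The number of genes called in footprints and efficiency moved with the setting. After 2 h of H2O2, 201 genes were called in footprints, against 315 with no filter, 45 with limma on log2(TPM + 1), 27 with only the groups compared and 37 to 145 with a library left out. After 2 h of KCl, 723 were called, against 477, 463 and 211 to 421 under the last 3 of these. With a library left out, 1681 to 2245 of 2925 were called after 7 h of H2O2, 996 to 1381 of 2148 after 7 h of KCl, 1828 to 2518 of 3139 for 7 h against 2 h of H2O2 and 802 to 1256 of 2170 for KCl. In efficiency, weighting each assay separately with limma voom, chosen after seeing the data, gave 661, 645, 733 and 221 genes in place of 1199, 971, 1337 and 584, in the order H2O2 2 h and 7 h, KCl 2 h and 7 h. With a library left out these ranged from 586 to 1887, 453 to 915, 775 to 1305 and 230 to 534. Limma on log2(TPM + 1) gave 765 after 2 h of KCl and 247 after 7 h, where DESeq2 gave 1071.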
